A study of Mus musculus with 1 sample.

Results

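The genes examined were 9 whose products mark the secretory lineages of the stomach, of 32285 genes counted in the library. The rule takes them by name and uses no measured value: the trefoil peptides Tff1 and Tff2, the gastrokines Gkn1, Gkn2 and Gkn3, the mucins Muc5ac, Muc6 and Muc1, and the pepsinogen Pgc. All 9 were found in the matrix, each under a single identifier. The library came from mouse gastric organoids, which are epithelial cultures grown from stomach as closed balls of cells in a gel. It is labelled wild type with no treatment, and the cultures were taken 7 days after seeding. Cells were separated with 0.05% trypsin at 37 °C for 30 min, and the library was made with a 10x Genomics 3' kit. The series text also names organoids labelled KP and EKP, which were not analysed here. Only 1 library was analysed here, so there was no second genotype, no replicate and no test between groups, and every interval below is a 95% interval that covers counting error only.

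In the stomach, pit cells line the surface and its pits and secrete Muc5ac, Tff1, Gkn1 and Gkn2 into the mucus layer. Mucous neck cells lie deeper in the glands and secrete Muc6 and Tff2, and chief cells at the gland base store pepsinogens such as Pgc. Muc1 is a mucin of another kind, anchored in the apical membrane of many epithelia. Mature cells make these products at very high levels.

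Counts were of unique molecular identifiers (UMIs), 1 per captured transcript molecule. A barcode was used as a cell if it had 500 or more genes with a UMI and no more than 20% mitochondrial UMIs, which kept 1892 of 1991 barcodes. They held 20118334 gene UMIs, with a median of 8512.5 per cell (890 to 47183). A level in CPM is the sum of a gene's UMIs over the cells concerned, scaled to 1000000 of their gene UMIs. The method counts transcript 3' ends, so a level was not divided by gene length. Of 11 genes of blood, vessel and connective tissue cells, 10 had at most 3 UMIs in all cells. The exception was the lysosomal gene Cd68, at 9.74 CPM. The epithelial marker Epcam had a mean of 3.84 to 11.7 UMIs per cell in the shallowest to the deepest cells described below. Of the 1892 cells, 61 stood apart in Y-linked counts. They formed cluster 7 of a clustering made without the 9 genes, and 54.1% of them had a UMI of a Y-linked gene, against at most 1.53% in each of the other 6 clusters. Xist was at 82.3 CPM in cluster 7 and at 499 CPM in all other cells. The labels used here give no sex and tie none of the 12 multiplexing tags in the matrix to a suspension. Only the tags CMO301 and CMO302 were the highest tag of any cell. CMO301 was highest in 59.0% of cluster 7 and in 52.4% to 62.7% of the other clusters. Whether these 61 cells came from the same culture as the others cannot be told apart from a difference in cell state. Levels, concentration, overlaps and correlations are given with and without cluster 7.

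Together the 9 genes had 12532 UMIs, or 623 CPM (612 to 634). Tff1 alone accounted for 49.2% of these UMIs. Of the 9 genes, 6 were found in 5% of cells or more, and 26.6% of all 32285 genes reached that share. Muc1 was found in most cells at low counts. Tff1, Gkn1, Gkn2, Gkn3, Tff2, Muc5ac and Pgc had most of their UMIs in a handful of cells, many of them in cluster 7, and Muc6 was all but absent.

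Tff1, a small peptide with a trefoil domain that pit cells secrete with mucin, had the highest level. It had 6172 UMIs, or 307 CPM (299 to 315), which placed it at position 388 among all genes. Of these UMIs, 2441 came from a single cell, which is 39.5% of the total. The next cells had 1198, 197, 165, 163, 92, 84, 52, 49 and 32 UMIs. After these 10 cells the count fell to 9, so the 10 cells stood apart from all others and held 72.5% of the Tff1 UMIs. In the richest cell 5.17% of all gene UMIs were Tff1, and in the second cell 5.97%. Tff1 (ENSMUSG00000024032) lies on GRCm38 chromosome 17, 31161395 to 31165277, minus strand. The gene Gm15318 overlaps it on the opposite strand and had 9 UMIs.

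Tff2, the trefoil peptide of mucous neck cells, is the neighbour of Tff1, with 17.1 kb between them. It lies on chromosome 17, 31141049 to 31144282, minus strand (ENSMUSG00000024028). Its level was 17.6 CPM (15.9 to 19.6), from 355 UMIs. The 8 cells with the most Tff2 had 60, 32, 28, 17, 17, 14, 12 and 12 UMIs, and the next had 6. These 8 cells held 54.1% of the Tff2 UMIs.

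The gastrokines are secreted proteins of the stomach surface that are thought to protect the mucosa, and their genes lie side by side on chromosome 6. The gap between Gkn1 and Gkn2 is 22.4 kb and that between Gkn2 and Gkn3 is 3.76 kb. Gkn1 (ENSMUSG00000030050, 87345650 to 87350942, minus strand) was at 70.8 CPM (67.2 to 74.6). Its richest cells had 353, 295, 143, 54, 30 and 12 UMIs, and the next had 6. Gkn2 (ENSMUSG00000030049, 87373357 to 87379497, plus strand) was at 41.0 CPM (38.3 to 43.9). Its richest cells had 280, 109, 41, 18 and 13 UMIs, followed by 8. Gkn3 (ENSMUSG00000030048, 87383256 to 87388935, minus strand) was at 21.6 CPM (19.6 to 23.7), with 71 UMIs in its richest cell. It had 12 cells with 10 or more UMIs, more than any of the other secreted products, and its counts declined without a gap, to 10 in the last of these cells and 8 in the next.

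The bases before the 3 gastrokine starts are shown because the genes are neighbours. Whether these letters relate to the cells in which a gene was counted was not tested. Each is the 250 bases before the transcription start in RefSeq (build GRCm38.p6), written 5′ to 3′ on the gene's strand. RefSeq promoters were matched for 6 of the 9 genes. Capitals mark the TATA box hexamer TATAAA or the GATA factor motif AGATAA, searched on both strands.
Gkn1 (chr6:87350916-87351165, minus strand): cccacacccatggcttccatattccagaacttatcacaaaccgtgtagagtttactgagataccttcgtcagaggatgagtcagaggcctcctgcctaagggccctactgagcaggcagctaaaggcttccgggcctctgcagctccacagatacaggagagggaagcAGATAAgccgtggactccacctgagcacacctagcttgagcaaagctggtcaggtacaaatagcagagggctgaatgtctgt
Gkn2 (chr6:87373115-87373364, plus strand): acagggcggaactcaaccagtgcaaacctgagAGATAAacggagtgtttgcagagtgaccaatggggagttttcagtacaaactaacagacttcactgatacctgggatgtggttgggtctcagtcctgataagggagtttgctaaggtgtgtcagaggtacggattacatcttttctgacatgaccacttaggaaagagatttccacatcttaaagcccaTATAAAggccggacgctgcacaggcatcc
Gkn3 (chr6:87388936-87389185, minus strand): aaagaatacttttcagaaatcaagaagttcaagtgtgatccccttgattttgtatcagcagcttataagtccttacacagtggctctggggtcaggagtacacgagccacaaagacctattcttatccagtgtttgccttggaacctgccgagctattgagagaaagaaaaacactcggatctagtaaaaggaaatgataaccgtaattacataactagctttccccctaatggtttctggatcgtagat
The TATA box hexamer was found in Gkn2, 29 bases before the start, and Gkn1 and Gkn3 have no match in this window. Of 32817 promoters in the same table, 12.4% hold it on either strand. The GATA motif was found 82 bases before the start of Gkn1 and 218 bases before that of Gkn2, with none in Gkn3, and 9.99% of promoters hold it. A match describes the letters only.

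The mucins of the gland lineages were low. Muc5ac, the gel-forming mucin of pit cells (ENSMUSG00000037974, chromosome 7, 141788972 to 141819231, plus strand), was at 5.67 CPM (4.67 to 6.81), from 114 UMIs. Its richest cells had 45 and 15 UMIs, and no other cell had more than 4. Muc6, the gel-forming mucin of neck cells, lies in the same mucin cluster (ENSMUSG00000048191, chromosome 7, 141633456 to 141655319, minus strand). It had 1 UMI in 1892 cells, or 0.0497 CPM (0.00126 to 0.277). With a single UMI, whether Muc6 and Tff2 share cells could not be read.

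Muc1 (ENSMUSG00000042784, chromosome 3, 89229057 to 89233381, plus strand) was the second highest of the 9, at 156 CPM (150 to 161). It had a UMI in 1232 cells, or 65.1% (62.9% to 67.3%). Its richest cell had 23 UMIs, only 0.734% of its total. Pgc, the chief cell zymogen pepsinogen C (ENSMUSG00000023987, chromosome 17, 47726842 to 47734482, plus strand), was at 3.53 CPM (2.76 to 4.45), from 71 UMIs. Of these, 25 came from 1 cell, and the next cell had 5.

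The same window is shown for Muc1 and Pgc.
Muc1 (chr3:89228806-89229055, plus strand): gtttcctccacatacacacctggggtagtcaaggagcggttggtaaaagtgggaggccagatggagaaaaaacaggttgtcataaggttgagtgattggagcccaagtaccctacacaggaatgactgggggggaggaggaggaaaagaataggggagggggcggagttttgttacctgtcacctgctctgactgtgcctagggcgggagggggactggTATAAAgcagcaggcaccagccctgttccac
Pgc (chr17:47726592-47726841, plus strand): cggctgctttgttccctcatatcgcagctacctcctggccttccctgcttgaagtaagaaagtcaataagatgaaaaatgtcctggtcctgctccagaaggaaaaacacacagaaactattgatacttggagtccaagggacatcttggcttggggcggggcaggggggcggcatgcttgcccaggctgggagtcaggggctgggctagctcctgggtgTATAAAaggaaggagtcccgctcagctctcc
Both hold the TATA box hexamer 31 bases before the start, and neither holds the GATA motif.

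**Figure D1:**
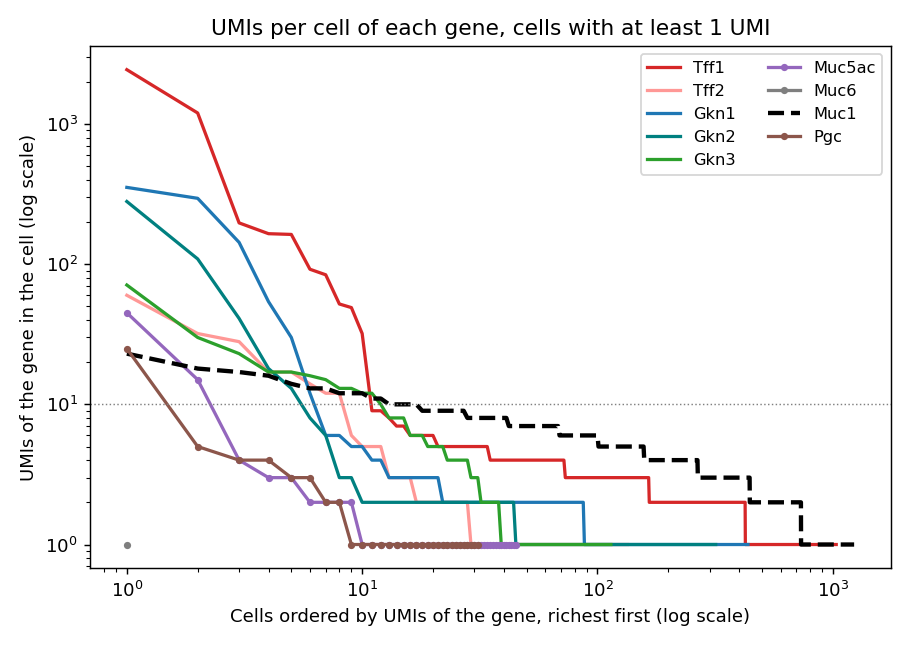
UMIs of each gene in each cell (vertical, log scale) against the position of the cell when cells are ordered by that gene (horizontal, log scale); the dotted line marks 10 UMIs. Tff1 falls from 2441 UMIs to 9 within 11 cells, while Muc1 falls slowly from 23.

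Concentration was measured against depth. If the UMIs of a gene fell on cells in proportion to the cells' total UMIs, a known number of cells would hold at least 1, and the observed number was divided by it. A quotient of 0.5 or less was called concentrated. Among 10132 genes with at least 50 UMIs the median quotient was 0.970, and 0.523% of genes were called. Muc6 was below 50 UMIs and was not rated. Of the other 8 genes, 5 were called: Gkn3 at 0.305, Muc5ac at 0.411, Tff2 at 0.427, Pgc at 0.448 and Gkn1 at 0.475. Gkn2 was just outside at 0.506. Tff1 was at 0.612, with exactly 1 UMI in 610 of its 1034 cells, and Muc1 was at 0.892.

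The share of UMIs in the richest 1% of cells, which are 19 cells, was taken as a second measure after the values had been seen. The median over the 10132 genes was 13.9%, and 0.878% of genes had 50% or more of their UMIs there. All of the 8 rated genes except Muc1 did, from 60.7% for Gkn2 to 83.1% for Pgc. Muc1 had 7.66%. For Tff1 the share was 73.5%, and only 34 genes, itself included, had as high a share or higher. Without cluster 7, in 1831 cells, 2 of the 6 genes still rated had 50% or more, where 0.591% of genes did. These were Tff2 at 64.0% and Gkn3 at 61.8%. Gkn1 was at 47.3%, Gkn2 at 25.1%, Tff1 at 22.7% and Muc1 at 7.34%, so for Tff1 and Gkn2 the concentration rested on cluster 7.

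**Figure D2:**
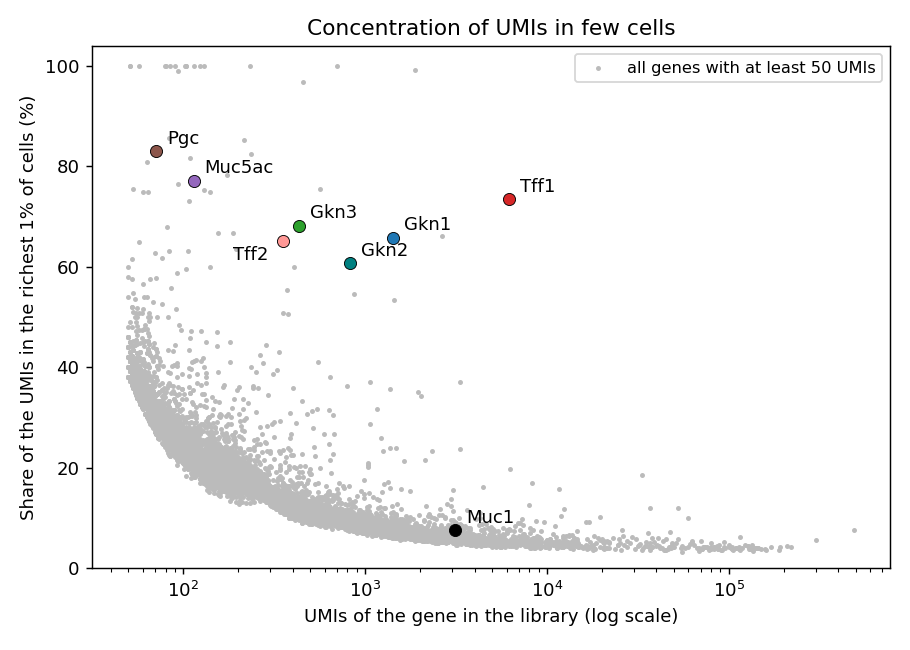
Share of a gene's UMIs in the richest 1% of cells (vertical, %) against its total UMIs (horizontal, log scale) for all genes with at least 50 UMIs (grey) and the 8 genes rated here (coloured). Tff1, Gkn1 and Gkn2 lie above the grey band of genes of like total, and Muc1 lies near it.

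The cells with 10 or more UMIs of a secreted product were then compared gene by gene. There were 29 of them, 1.53% of cells, and they held 68.9% of the UMIs of the 7 secreted products other than Muc6. The limit of 10 was set after the values had been seen. All 6 Gkn1-rich cells and all 5 Gkn2-rich cells were among the 10 Tff1-rich cells, and so were both Muc5ac-rich cells. The richest cell had 2441 Tff1, 353 Gkn1 and 280 Gkn2 UMIs but 0 of Muc5ac. The second had 1198 Tff1, 143 Gkn1, 109 Gkn2 and 45 Muc5ac UMIs. Proportions were not fixed: 1 cell had 295 Gkn1 UMIs but only 32 of Tff1, and another had 84 of Tff1 and 0 of Gkn1 and Gkn2.

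None of the 12 Gkn3-rich cells was rich in any other of the 7 products, its neighbours Gkn1 and Gkn2 included. With so few rich cells among 1892, sets that had nothing to do with each other could also share none. The overlap was not tested, and it is not read as a separation of the genes. At low counts the genes did share cells: 4 of the 6 Gkn1-rich cells had 1 to 3 Gkn3 UMIs. In the 12 Gkn3-rich cells the highest Tff1 count was 9, and neither Gkn1 nor Gkn2 exceeded 1 UMI. Outside cluster 7 only 2 Gkn3-rich and 3 Tff1-rich cells remained, with no cell in both sets, and both remaining Gkn1-rich cells were also rich in Tff1 and Gkn2. With 5 UMIs as the limit, 34 cells passed for Tff1 and 22 for Gkn3, and 2 passed for both. The cell with 25 Pgc UMIs had 5 of Gkn3 and 0 of Tff1. It also had 64 UMIs of Agr2, a disulfide isomerase of the secretory pathway needed for mucin folding. Of the 8 Tff2-rich cells, 2 were also Tff1-rich, and the other 6 had at most 2 Tff1 UMIs. The cell with 60 Tff2 UMIs had 8 UMIs of the gel-forming mucin Muc5b and 3 of Muc5ac.

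**Figure D3:**
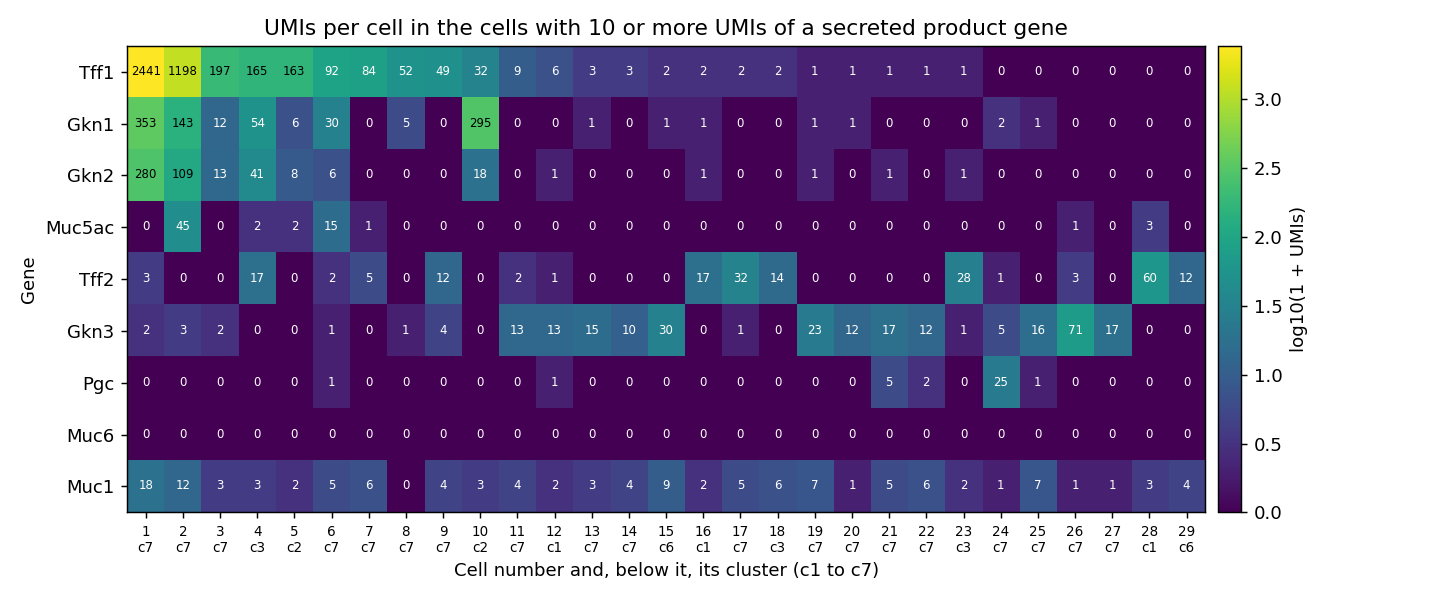
UMIs of the 9 genes (rows) in the 29 cells with 10 or more UMIs of a secreted product (columns, with the cluster below); colour is log10(1 + UMIs). Tff1, Gkn1 and Gkn2 share cells at the left, Gkn3 is at 10 or more in 12 other cells with at most 9 Tff1 UMIs, and the Muc6 row is 0 throughout.

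The 29 cells were deeper than the rest, with a median of 19607 gene UMIs against 8395. Of the 29, 19 were in cluster 7, 11 had a Y-linked UMI and 13 a Xist UMI, and 1, with 49 Tff1 and 12 Tff2 UMIs, was called a doublet. Of the other 1863 cells, 39 had a Y-linked UMI and 1439 a Xist UMI. The highest multiplexing tag was CMO301 in 17 and CMO302 in 12 of the 29, and in 1045 and 818 of the others. The labels do not tie these tags to suspensions. The fraction of a cell's tag UMIs that came from its highest tag had a median of 75.0% in the 29 cells (40.2% to 95.8%) and of 83.1% in the others. The part of depth, tag purity and cell origin in the result was not tested.

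Outside these 29 cells 8 genes could be followed across depth, Muc6 being too low. The remaining 1863 cells were divided by depth into 4 groups, with medians of 4868 UMIs in the shallowest and 17717 in the deepest, 3.64 times as many. Mean Tff1 was 0.824 UMIs per cell in the shallowest group (0.744 to 0.911) and 0.989 in the deepest (0.901 to 1.08), 1.20 times as much. The quotient of deepest to shallowest was 1.12 for Gkn1, 1.27 for Gkn2, 1.12 for Tff2 and 1.16 for Muc5ac. For these 5 genes the count per cell in the deepest group was at most 1.27 times that in the shallowest. Between them Muc5ac was as low as 0.0129 (0.00473 to 0.0280), from 6 UMIs, and Gkn1 as low as 0.232 (0.190 to 0.280), both in the second group. Muc1 went from 0.594 to 3.28 UMIs per cell, 5.51 times as much and so more than in proportion to depth. Gkn3 was 3.72 times and Pgc 3.76 times as high, close to the quotient of depth itself, although Pgc had only 36 UMIs in these cells. Of the UMIs in these cells, cluster 7 held 73 of 165 for Gkn3 and 15 of 36 for Pgc. The median depth of all 61 cells of cluster 7 was 14450 UMIs. Depth groups were not made without cluster 7, so its part in these 2 quotients was not tested.

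The 99 barcodes that failed the cell filter served as a comparison at a median depth of 901 UMIs. Of these, 76 had too few genes and 73 too high a mitochondrial share, with some failing on both, and no empty droplets were measured. They had 1.16 Tff1 UMIs per barcode (0.959 to 1.39), and 59.6% had at least 1 (49.3% to 69.3%), with at most 11 in any barcode. Among cells 54.7% had a Tff1 UMI (52.4% to 56.9%), at a median of 8512.5 UMIs. For Gkn1 the shares were 23.2% of failing barcodes (15.3% to 32.8%) and 23.0% of cells (21.2% to 25.0%). For Tff2 they were 9.09% (4.24% to 16.6%) and 7.08% (5.97% to 8.33%), and for Muc5ac 3.03% (0.629% to 8.60%) and 2.38% (1.74% to 3.17%). The share in cells was at or near the share in failing barcodes for these 4 genes, so it is not read as the share of cells that express the gene. Muc1 differed, with 16.2% of failing barcodes (9.53% to 24.9%) against 65.1% of cells. Gkn2 was at 7.07% (2.89% to 14.0%) against 16.8% (15.1% to 18.6%). Gkn3 was at 1.01% (0.0256% to 5.50%) against 6.03% (5.0% to 7.19%), and these intervals overlap. Without cluster 7 the share of cells with Gkn3 was 3.88%, inside the interval of the failing barcodes. Pgc had no UMI in the 99 barcodes, with an upper limit of 3.66%. It was found in 1.64% of cells, which is below that limit.

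**Figure D4:**
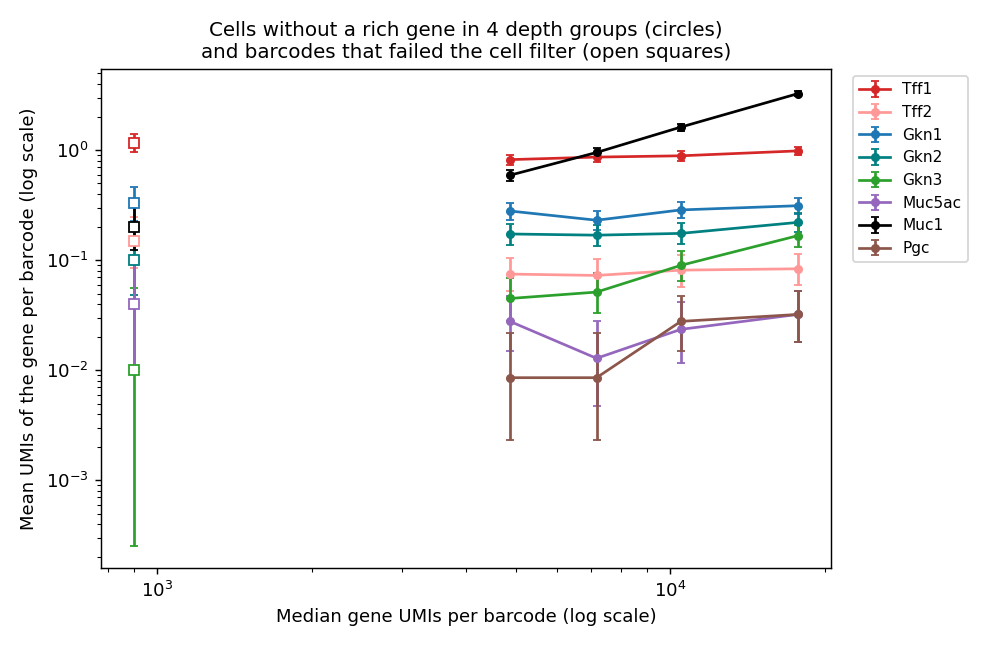
Mean UMIs per barcode (vertical, log scale, 95% Poisson intervals) against median depth (horizontal, log scale) in 4 depth groups of the 1863 cells without a rich gene (circles) and in the 99 failing barcodes (open squares; Pgc, at 0 there, is not drawn). Tff1 lies between 0.824 and 1.16 UMIs at every depth, while Muc1 climbs from 0.594 to 3.28.

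The proportions among the genes were compared next. Per 100 Tff1 UMIs there were 20.1 of Gkn1 in the Tff1-rich cells, 31.2 in the cells without a rich gene and 28.7 in the failing barcodes. For Gkn2 the values were 10.6, 20.7 and 8.70, and for Tff2 0.872, 8.77 and 13.0. Failing barcodes held only 33 Gkn1, 10 Gkn2 and 15 Tff2 UMIs. The part of free RNA in the low counts was not tested.

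After each cell was thinned to 3000 UMIs, which left out 57 shallower cells, the share of cells with a UMI was 23.4% for Tff1 (21.5% to 25.4%), 33.5% for Muc1 (31.4% to 35.7%), 9.21% for Gkn1 and 6.21% for Gkn2. It was 2.67% for Gkn3, 2.51% for Tff2, 0.981% for Muc5ac and 0.654% for Pgc. Muc6 had no UMI in the 1835 thinned cells.

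The 9 genes were next set against the 7 clusters. Cluster 7 was led by Cyba, Reg3g, Gm3776, Gsta2 and Gsta1. Cyba encodes a subunit of NADPH oxidase and Reg3g an antimicrobial lectin. Gsta1 and Gsta2 encode glutathione transferases with similar sequences, so their counts are uncertain. Tff1 and Gkn3 were among its 10 leading genes, and the cluster was given no cell type name. Of the 8 rated genes, 7 were at least 2-fold higher in cluster 7 than in all other cells and none was lower, where 10.9% of the 10132 genes were higher and 10.1% lower. Muc5ac and Pgc reached the minimum for rating only through cluster 7, with 67 and 49 UMIs there and 47 and 22 elsewhere. The minimum itself therefore favoured high ratios for Muc5ac and Pgc. The median log2 ratio was 4.53 over the 8 genes and 0.08 over all. Other lists moved with them: the 7 proliferation genes summed to 1025 CPM in cluster 7 and 236 CPM elsewhere, 4.35 times (4.06 to 4.66), and each was 3.41 to 7.36 times as high. The intestinal list was 3.45 times as high (2.68 to 4.39), carried by Apoa1 at 20.5 times (13.7 to 30.7), while Cdx2 was at 1.27 times (0.806 to 1.93). The tuft list was 3.45 times as high (1.40 to 7.40), at 7.93 CPM against 2.30 CPM. The part of these in the result was not tested.

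In cluster 7 the Tff1 level was 4138 CPM (4014 to 4266), and in other cells 105 CPM, 39.6 times as high (37.5 to 41.8). Yet its share of cells was alike, 55.7% of cluster 7 (42.4% to 68.5%) and 54.6% elsewhere (52.3% to 56.9%), so a few cells set the level. The 29 rich cells were picked for high counts of the secreted products, and 19 of them were in cluster 7. Leaving them out therefore lowers the ratios of those genes by construction. With the 29 left out, 42 cells of cluster 7 remained. The Tff1 level was then 59.6 CPM there and 86.0 CPM elsewhere, 0.693 times (0.491 to 0.952). Gkn1 was 12.4 times as high in cluster 7 (11.1 to 13.8), and 0.860 times (0.478 to 1.43) without the rich cells. Its ratio depended on the settings: it was 28.0 to 28.5 times with 20 components, 3000 variable genes or at most 10% mitochondrial UMIs, 7.87 times as a mean over cells and 5.73 times at resolution 0.3. Gkn2 was 19.8 times as high (17.3 to 22.8), and 1.04 times (0.533 to 1.84) without them. Tff2 was 4.57 times as high (3.46 to 5.97), and 1.90 times (0.85 to 3.71) without them.

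In cluster 7 Gkn3 was both found in most cells and high in some. Of its 298 UMIs there, 73 remained without the rich cells. It had a UMI in 43 of the 61 cells, 70.5% (57.4% to 81.5%), and in 3.88% of other cells (3.04% to 4.87%). After thinning the shares were 38.3% (26.1% to 51.8%) and 1.46% (0.959% to 2.14%). Its level was 296 CPM (263 to 331) against 7.12 CPM, 41.5 times as high (33.8 to 51.2), and 22.9 times (16.6 to 31.5) without the rich cells. Of 6 genes still with 50 UMIs after that removal, only Gkn3 was 2-fold higher. The removed cells were picked for high counts of the secreted products, which lowers the ratios of those genes by construction. The 12.0% of all genes that were 2-fold higher are no like comparison, since the cells were not picked for them. Pgc followed Gkn3, with a UMI in 12 of 61 cells, 19.7% (10.6% to 31.8%), against 1.04% elsewhere (0.626% to 1.62%). It was 42.2 times as high in cluster 7 (25.0 to 73.3), and 20.6 times (9.90 to 42.0) without the rich cells, where it had 36 UMIs and so fell below the minimum. Muc5ac was 27.0 times as high (18.3 to 40.1), but 60 of its 67 UMIs in cluster 7 came from 2 cells. Without the rich cells it was 3.61 times as high (1.11 to 9.15) from 5 UMIs in the cluster. Muc1 was 1.82 times as high (1.60 to 2.06) and 1.85 times (1.58 to 2.15) without the rich cells.

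**Figure D5:**
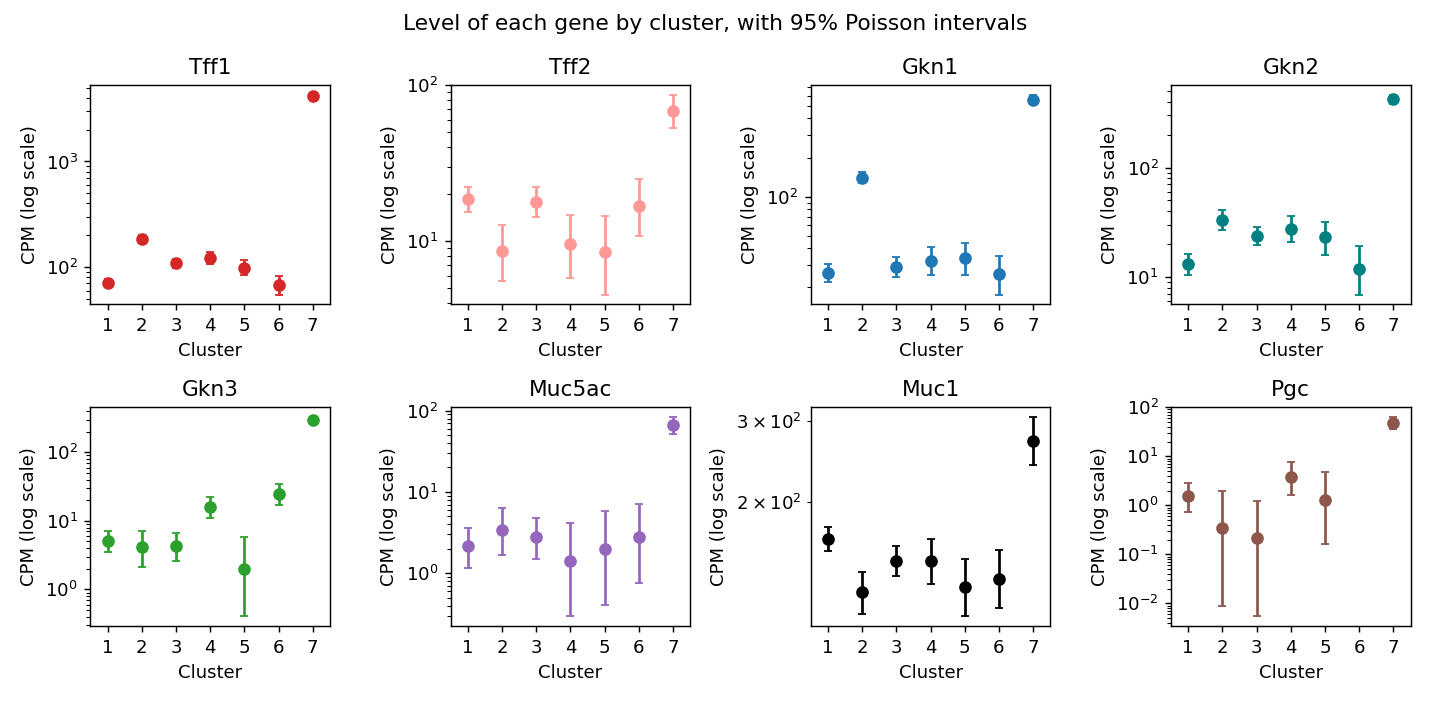
Level of 8 genes (vertical, CPM, log scale, 95% Poisson intervals) in clusters 1 to 7 (horizontal; a cluster with 0 UMIs, as cluster 6 for Pgc, is not drawn). Each gene is highest in cluster 7, from 48.6 CPM for Pgc to 4138 CPM for Tff1, and Gkn1 is next highest in cluster 2.

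Among clusters 1 to 6, Muc1 ran from 128 CPM in cluster 2 (115 to 142) to 167 CPM in cluster 1 (157 to 177). Tff1 was highest in cluster 2, at 183 CPM (168 to 200), where 2 rich cells had 163 and 32 of its 532 UMIs. Without the rich cells it was at 118 CPM there, below the 123 CPM of cluster 4. The Gkn1 level was 140 CPM (126 to 154) in cluster 2, and the other 5 clusters lay between 25.2 and 33.5 CPM. Of its 405 UMIs in cluster 2, 295 came from 1 cell. Gkn3 was at 24.5 CPM in cluster 6 (17.0 to 34.0), where 1 cell had 30 of 35 UMIs, and at 15.7 CPM in cluster 4 (10.8 to 22.1), which held no rich cell. Without the rich cells, mean Tff1 lay between 0.798 and 0.971 UMIs per cell in all 7 clusters.

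Genes with the most similar pattern across the 1892 cells were found by Pearson correlation of ln(1 + UMIs per 10000), among 8585 other genes with a UMI in at least 5% of cells. The cells share 1 library, and sparse counts limit the size of r. For Tff1 the first were Gkn1 (r = 0.299), Gkn2 (0.283), Gsta1 (0.211) and Vsig2 (0.145). For Gkn1 they were Gkn2 (0.308), Tff1 and Gsta1 (0.214), and for Gkn2 they were Gkn1, Tff1 and Gsta1 (0.227). Gkn3 was most like Pigr, the receptor that carries immunoglobulin A across epithelium (0.394), then Gsta1 (0.277), Vsig2 (0.238), Mt2 (0.238) and Agr2 (0.224). For Tff2 the first were Dmbt1 (0.164), a mucosal glycoprotein, and Agr2 (0.134). For Muc1 they were Clu (0.180) and Ltf (0.166), the gene of lactoferrin. Without the 29 rich cells, r fell to 0.164 for Tff1 with Gkn1 and to 0.065 for Tff1 with Gsta1. Tff2 fell to 0.043 with Dmbt1 and to 0.052 with Agr2. Gkn3 then had 0.184 with Pigr and 0.232 with Gsta1, which reverses their order, and Muc1 with Clu was at 0.165. Without cluster 7, r for Gkn3 was 0.010 with Pigr, 0.059 with Gsta1, 0.027 with Vsig2, 0.034 with Mt2 and 0.105 with Agr2, so its likeness to the first 4 rested on cluster 7. Tff1 was then at 0.196 with Gkn1, 0.190 with Gkn2 and 0.151 with Gsta1, Gkn1 with Gkn2 at 0.209, Tff2 with Dmbt1 at 0.113, and Muc1 at 0.135 with Clu and 0.167 with Ltf.

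The wider marker lists of the stomach lineages were read in the same cells. Of 10 measured pit genes, 4 reached 5% of cells, as 26.6% of all genes did, and Tff1, Gkn1 and Gkn2 are 3 of them. Foxq1, a forkhead factor needed for Muc5ac in pit cells, was found in 74.5% of cells at 248 CPM, and its quotient of 0.876 was near that of Muc1. Mucl3, a mucin-like gene, was held by few cells as Tff1 was: it was at 6.46 CPM with 75.4% of its UMIs in the richest 1% of cells and 49 UMIs in the cell richest in Tff1. Vsig1, at 3.53 CPM, and Ctse, the gene of cathepsin E, at 2.98 CPM, were 19.5 and 15.5 times as high in cluster 7 as elsewhere. Capn8 and Capn9 had no UMI.

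Of 6 mucous neck genes, Wfdc2 (4677 CPM) and Aqp5 (1144 CPM) were in at least 91.0% of cells and Cd44 in 23.5%. Neither Wfdc2 nor Aqp5 followed Tff2, at 0.977 and 0.260 times in cluster 7. A4gnt, whose enzyme adds the terminal sugar of gland mucin, was at 0 UMIs. With 3 counts as the floor this limits cells with a UMI to 0.159%, and sets no limit on cells that express the gene. Of 6 measured chief cell genes none reached 5% of cells, where 26.6% of all genes did, and Pgc came first, at 1.64%. Pga5, Cblif and Lipf had no UMI, and the transcription factor gene Bhlha15 had 7. Of 5 parietal cell genes, Atp4a, a proton pump subunit, had 29 UMIs, Kcne2 had 1 and the other 3, Atp4b among them, had none. No endocrine gene of 7 had more than 3 UMIs. Of 5 tuft cell genes Dclk1 had 32 UMIs, and of 7 intestinal genes Cdx2 was in 17.3% of cells at 18.9 CPM, while Apoa1 was in 3.22%, and Muc2 had 15 and Tff3 13 UMIs. Of 6 genes of the squamous forestomach Krt4 alone reached 5% of cells, as 26.6% of all genes did. It was in 80.1% of cells at 464 CPM, and Krt5 had no UMI.

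Of 10 other mucin genes, 1 was in at least 5% of cells, the membrane mucin Muc4 at 17.2 CPM. Muc5b and Muc13 had 24 UMIs each, and Muc3, Muc15, Muc16 and Muc19 had none. Of 23 genes that build and fold mucins, 13 were in at least 5% of cells, beside 26.6% of all genes, led by the glycosyltransferase genes Galnt1 (71.5 CPM), Galnt7 (62.5 CPM) and B3gnt3 (39.9 CPM). The median quotient of the 16 with at least 50 UMIs was 0.951, near the 0.970 of all genes, and none was called concentrated. Agr2 had the lowest, 0.616, with 36.4% of its UMIs in the richest 1% of cells, and was 11.2 times as high in cluster 7 (9.67 to 12.9). Spdef, a regulator of mucous cells, had 4 UMIs.

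The values by tag and without cluster 7 were these. The summed level of the 9 genes was 695 CPM in cells with CMO301 as the highest tag and 533 CPM in cells with CMO302. Without cluster 7 it was 346 CPM, and without the 29 rich cells 303 CPM. By gene, the level without cluster 7 was 105 CPM for Tff1, 14.97 for Tff2, 45.1 for Gkn1, 21.1 for Gkn2, 7.12 for Gkn3, 2.46 for Muc5ac, 150 for Muc1 and 1.15 for Pgc. Of these, only Tff2 and Muc1 stayed within 1.5 times of their level in all cells. Without cluster 7, 1 of 6 rated genes was called concentrated, Tff2 at 0.469. Muc5ac and Pgc were then below 50 UMIs and not rated. Leaving out the rich cells lowers concentration by construction, since they were picked for high counts of these genes: Gkn3 was then at 0.598, Tff2 at 0.859 and Gkn1 at 0.971, and 0 of 6 were called. At 2 or more UMIs per cell, 2 of the 9 genes, Tff1 and Muc1, were in at least 5% of cells.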

How the data were processed

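The deposited matrix gives UMI counts as whole numbers, not normalized. Cell Ranger 6.1.2 wrote it, per the file headers, with GRCm38/mm10 as the build, per the labels. There was 1 library, and its cells are not replicates. The annotation, and whether counting used strand, are not given in the sources used here. Multiplexing tags, 12 in all, were kept out of gene totals.

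Scrublet (scanpy 1.11.5) called 12 doublets, which were kept in the main values and removed as an alternative. CPM carry exact Poisson intervals, shares exact Clopper-Pearson intervals and ratios exact conditional binomial intervals. Clusters came from counts scaled to 10000 per cell, ln(x + 1), 2000 variable genes without the 9 genes, the marker lists, cell cycle, sex-linked and mitochondrial genes, 30 principal components, 15 neighbours and Leiden clustering (leidenalg 0.10.2, resolution 0.6). Cluster 7 was compared as the cluster with the largest share of cells with a Y-linked UMI. Coordinates are from GENCODE M21 (GRCm38), which matched 9 of 9 genes. The steps were tested on simulated data.

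Named genes were the 9, up to 8 per marker list by level, the 5 leading genes of a cluster, and the 5 genes most similar to each of the 6 found in 5% of cells or more, of which the first are given. Genes at low or 0 counts in the lists, and Agr2, Mucl3 and Muc5b in single cells, were named after their values were seen, and so were the limit of 10 UMIs, the depth groups and the use of failing barcodes. The genes and lists were chosen with earlier results of these data known.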

Additional observations from a re-analysis of the deposited data

Results flagged for a closer look

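The 99 barcodes that failed the cell filter entered no comparison of cells, and 6 of the 9 genes had more than 3 UMIs in them. There Tff1 was at 970 CPM (801 to 1164), Gkn1 at 278 CPM (192 to 391), Tff2 at 126 CPM (70.8 to 209), Gkn2 at 84.3 CPM (40.4 to 155) and Muc5ac at 33.7 CPM (9.19 to 86.4). Muc1 was at 169 CPM (103 to 260). The intervals of Tff1, Gkn1, Tff2 and Muc5ac lay above the levels in cells, which were 307, 70.8, 17.6 and 5.67 CPM. The interval of Gkn2 just reached its level in cells, 41.0 CPM, and that of Muc1 held its level, 156 CPM.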

How the results depend on the processing

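There were 386 recomputed values, from 19 alternatives and 39 results. Among the answers to a comparison 33 values were unmoved (for counts, by at most 1.5 times) and 11 moved. The summed level, 623 CPM, was 487 CPM as a mean over cells, 346 CPM without cluster 7, 303 CPM without the 29 rich cells, 695 CPM for CMO301 and 533 CPM for CMO302. The 5 concentrated genes became 1 without cluster 7, 2 for CMO302, 1 after thinning to 3000 UMIs and, by construction, 0 without the rich cells. Muc5ac and Pgc were not rated, being below 50 UMIs, except that Muc5ac was for CMO302. The 6 genes in 5% of cells or more became 2 at 2 or more UMIs and 4 after thinning. The 7 genes 2-fold higher in cluster 7 became 1 without the rich cells, where Tff1 turned to 0.693 times and Gkn1 to 0.860 times. The rich cells were picked for high counts of these genes, so that removal lowers the ratios by construction. The count was 5 for CMO301 and 6 for CMO302. Tff2 was at 2.72 and 8.77 times, and Muc5ac at 77.7 times for CMO302. Under 5 other clusterings the count was 7, but at resolution 0.3 the cluster had 150 cells, and Tff1 was at 17.8, Gkn2 at 8.88, Gkn3 at 25.7, Muc5ac at 13.2, Tff2 at 2.33 and Pgc at 17.8 times. As a mean over cells Tff1 was at 19.8 and Gkn2 at 8.90 times. Leaving out the rich cells, the rule on the richest 1% of cells, and the correlations and overlaps without cluster 7 were added with the values in view. The causes of the shifts by tag and thinning were not tested. Depth limits Pgc, Muc5ac and Muc6, with 71, 114 and 1 UMIs. No paired analysis was possible because only 1 library was analysed.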
